A study of Homo sapiens with 6 samples.

Results

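Interferon regulators and cap-sensing effectors were followed in the human neuroblastoma line BE(2)-C, which carries extra copies of MYCN, after knockdown of PCIF1. The genes were named by a list of interferon regulatory factors, STAT factors, RNA sensors and effectors, matched by Ensembl identifier. Of the 9 listed genes, 8 were analysed among the 13885 genes of the authors' deposited table: the transcription factors IRF1, IRF2, IRF3 and STAT2, the adaptor MAVS, and the effectors ADAR, IFIT5 and ISG20. The listed sensor IFIH1 was not analysed here. The siPCIF1 group held 3 samples transfected for 24 h with an siRNA (small interfering RNA) targeting PCIF1, and the siScramble group held 3 samples transfected for the same time with a scrambled control. All 6 samples carried the genotype WT in the labels and were then kept for 4 days in 10 µM all-trans retinoic acid (ATRA), which drives this line towards a neuronal form, so every value describes cells in ATRA. The samples come from a single cell line, and the labels do not say whether samples of a group were separate cultures, so p-values cover the spread among these samples, which may be technical.

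PCIF1 adds a methyl group to the adenosine that follows the mRNA cap and so makes m6Am. Cells use the cap to tell their own RNA from foreign RNA: the sensors RIG-I and MDA5 (the product of IFIH1) detect uncapped or double-stranded RNA and signal through MAVS on mitochondria to the kinase TBK1 and the transcription factor IRF3, which switches on interferon genes. Secreted interferon then acts through Janus kinases on STAT factors, which together with IRF9 bind the interferon-stimulated response element (ISRE) and raise many antiviral genes, among them the IFIT proteins, which bind the 5′ ends of RNA, and the exonuclease ISG20.

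The table the authors deposited is a DESeq2 comparison of the groups and holds 1 mean normalised count over all samples, 1 log2 fold change and its standard error (SE) per gene; values per library were not analysed here and the depth per library is unknown. Fold changes are siPCIF1 over siScramble. That direction was taken from PCIF1 itself, which the authors' deposited table lists at -0.82 (SE 0.19, DESeq2 adjusted p = 0.000167) with a mean of 166.8, since the header does not state it; the sign of PCIF1 is then no check of the knockdown. PCIF1 was not called when the Wald statistics were divided by their robust SD over all genes (adjusted p = 0.744 from the rescaled DESeq2 statistics) or when tested against an absolute log2 change of 0.3 (adjusted p = 0.0658 from the DESeq2 values), so the direction of every value rests on a gene whose own call is lost there. The robust SD over all genes takes in any true changes as well as error, so it may overstate the error. The plain order of the group names in the title of the table would turn every sign, and with that reading rises below become falls. In bulk samples, fewer cells of a type and less RNA per cell cannot be told apart. All 11 neuroblastoma markers of a list, ISL1 and MYCN among them, were analysed here, and of 12 immune cell markers CD14 and NCAM1 were, the second of which neuroblastoma cells also make.

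Promoter windows of 3 of these genes hold the motifs that interferon signalling is known to use, and they are shown because the genes they belong to changed. The windows are RefSeq sequences on GRCh38.p14, run 5′ to 3′ on the strand of the gene from 140 bases before the annotated start to the base at position 20 after it, and give in capitals the matches to TTCNNNGAA (the gamma-activated site, GAS, bound by STAT dimers) in IRF1 and to the ISRE core (GAAA and GAAA with any 2 bases between, bound by IRFs and by the interferon complex that holds STAT2 and IRF9) in ISG20 and IFIT5. They lie at chr5:132490754-132490913 on the minus strand for IRF1, chr15:88638876-88639035 on the plus strand for ISG20 and chr10:89414428-89414587 on the plus strand for IFIT5.
IRF1: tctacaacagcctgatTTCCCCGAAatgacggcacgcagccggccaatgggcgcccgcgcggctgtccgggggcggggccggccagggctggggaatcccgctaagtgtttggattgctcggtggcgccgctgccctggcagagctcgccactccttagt
ISG20: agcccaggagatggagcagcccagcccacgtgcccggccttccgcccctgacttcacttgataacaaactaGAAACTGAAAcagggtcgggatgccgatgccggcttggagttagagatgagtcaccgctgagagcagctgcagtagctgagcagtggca
IFIT5: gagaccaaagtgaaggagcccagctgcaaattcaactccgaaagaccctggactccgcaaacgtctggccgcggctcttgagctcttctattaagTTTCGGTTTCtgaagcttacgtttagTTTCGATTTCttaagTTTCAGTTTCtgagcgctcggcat

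The interferon regulators and effectors split. ISG20, IRF1 and STAT2 fell and IFIT5 rose, while IRF2, IRF3, MAVS and ADAR did not pass the test. By the authors' deposited table, 3 of the 8 genes were lower and 1 was higher at a DESeq2 adjusted p under 0.05, against 17.7% of all 13885 genes lower and 16.3% higher, or 34.0% changed in either direction. The median log2 fold change of the 8 genes per the authors' deposited table was -0.24, beside 0.0059 for all genes, and the median absolute change was 0.50, beside 0.32. With 8 genes, and with 34.0% of the table changed at this threshold, the count says little about the list, and the genes are described singly.

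**Figure D1:**
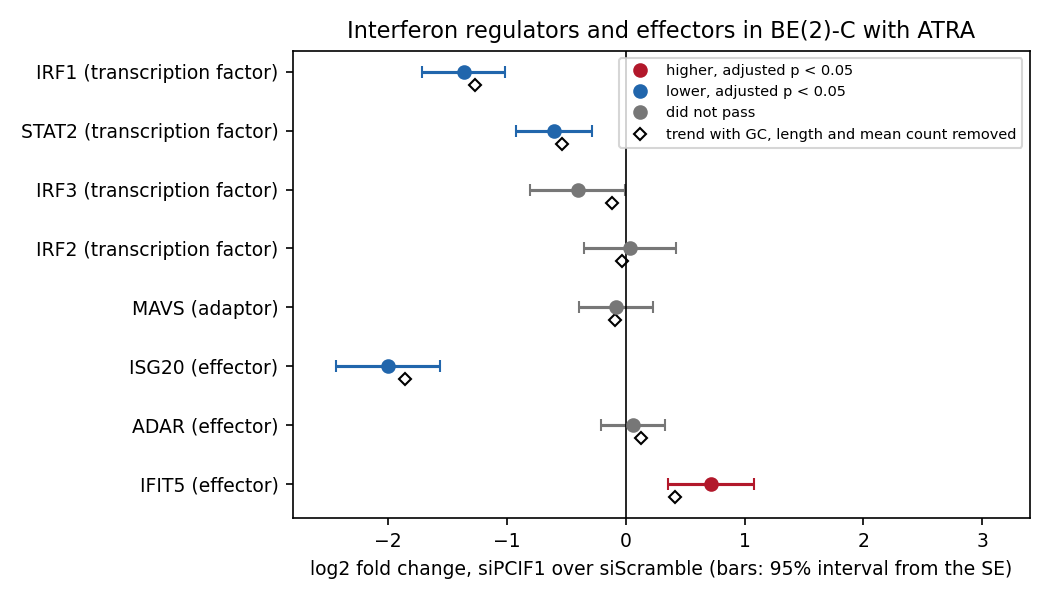
Log2 fold change (siPCIF1 over siScramble) of the 8 genes per the authors' deposited table, grouped by role. Circles are the deposited values with 95% intervals from the SE, and open diamonds are the values after the trend with GC content, transcript length and mean count was removed. ISG20 at -2.00 and IRF1 at -1.36 lie clear of 0 by both measures, and IFIT5 falls to 0.41 when the trend is removed.

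IRF1 is an activating transcription factor that binds the ISRE and keeps many antiviral and antigen presentation genes on; its own gene is induced by interferon. IRF1 (ENSG00000125347.13; chromosome 5, 132481609 to 132490798 in GRCh38, minus strand) stood in the authors' deposited table at -1.36 (SE 0.18, DESeq2 adjusted p = 1.19e-12), and its mean normalised count was 230.4. This corresponds to 38.9% of the siScramble level in siPCIF1 cells (95% interval 30.5 to 49.5%). Of all genes of the authors' deposited table, 1.16% had a lower fold change. The GAS in the window printed above spans positions -124 to -116 before the start, and since this motif is the same on both strands it matches on both. IRF1 overlaps C5orf56 on the opposite strand, which was at -0.72 (SE 0.29 and adjusted p = 0.0392, by DESeq2) per the authors' deposited table at a mean of 15.4. The libraries were strand-specific, but how reads were assigned to strands in counting is not stated in the labels, so the share of C5orf56 reads in the IRF1 value, and of IRF1 reads in that of C5orf56, cannot be told.

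IRF2 binds the same sites as IRF1 and mostly represses them. In the authors' deposited table IRF2 (ENSG00000168310.10; chromosome 4, 184387713 to 184474580, minus strand) was at 0.04 (SE 0.20 and adjusted p = 0.902, by DESeq2) with a mean of 85.3. Its 95% interval ran from -0.35 to 0.43. IRF1 lay below IRF2 by -1.40 on the log2 scale (95% interval -1.92 to -0.88), a difference that treats the errors of the genes as independent, as do the other differences below. The activator and the repressor of the pair therefore differed in their response by more than their errors.

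IRF3 is the factor that MAVS and TBK1 activate by phosphorylation, so its mRNA level says nothing of its activity. IRF3 (ENSG00000126456.15; chromosome 19, 49659569 to 49665875, minus strand) was at -0.40 (SE 0.20 and adjusted p = 0.113, by DESeq2) per the authors' deposited table at a mean of 180.1. Its unadjusted p per the authors' deposited table was 0.0485 by the DESeq2 Wald test, so it missed the threshold through the adjustment. IRF3 has the most GC-rich main transcript of the 8 genes, at 61.4%, and across genes a higher GC content went with a lower fold change (Spearman's rho of -0.42 across 13877 genes, which share the 6 libraries). After removal of the trend with GC content, length and mean count, IRF3 was at -0.12. It overlaps BCL2L12 on the opposite strand, which was not analysed here.

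STAT2 gives the interferon complex its activating domain. STAT2 (ENSG00000170581.13; chromosome 12, 56341597 to 56360155, minus strand) was at -0.61 (SE 0.16 and adjusted p = 0.00127, by DESeq2) per the authors' deposited table with a mean of 211.6. The siPCIF1 level was 65.6% of the siScramble level (95% interval 52.6 to 81.9%). IRF9, the DNA-binding member of the complex, was at -0.38 (SE 0.28 and adjusted p = 0.306, by DESeq2) per the authors' deposited table at a mean of only 17.6. STAT2 fell and IRF9 did not pass, but the interval of STAT2 minus IRF9, -0.86 to 0.40, holds 0, so a difference between them was not shown.

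MAVS, the mitochondrial adaptor, is where signals from the RNA sensors meet. MAVS (ENSG00000088888.17; chromosome 20, 3846799 to 3876123, plus strand) was at -0.08 (SE 0.16 and adjusted p = 0.731, by DESeq2) per the authors' deposited table with a mean of 907. Its level was 94.4% of the siScramble level (95% interval 76.0 to 117.4%). TBK1, the kinase below it, was at 0.83 (SE 0.19 and adjusted p = 0.000161, by DESeq2) per the authors' deposited table, and MAVS lay below TBK1 by -0.91 (95% interval -1.40 to -0.42).

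ISG20 is an interferon-induced exonuclease that degrades single-stranded RNA, and it had the largest change of the 8 genes. ISG20 (ENSG00000172183.14; chromosome 15, 88636153 to 88656483, plus strand) was at -2.00 (SE 0.22 and adjusted p = 1.03e-16, by DESeq2) per the authors' deposited table with a mean of 95.4. Its siPCIF1 level was 25.0% of the siScramble level (95% interval 18.5 to 33.9%), and 0.180% of all genes of the authors' deposited table had a lower fold change. By the unshrunken estimate described with the processing, the level would be 18.9%, near the lower end of that interval. The ISRE core of the window printed above lies at positions -69 to -60. AEN, a nuclear exonuclease of the same family that p53 induces, was at -0.77 (SE 0.14 and adjusted p = 1.36e-06, by DESeq2) per the authors' deposited table, and ISG20L2, the nucleolar member, at 0.12 (SE 0.14 and adjusted p = 0.548, by DESeq2). AEN also lies close to ISG20 on chromosome 15 (88621296 to 88632282), and whether the falls of both are linked was not tested. ISG20 lay below AEN by -1.23 (95% interval -1.75 to -0.71) and below ISG20L2 by -2.12 (95% interval -2.64 to -1.60).

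IFIT5 binds the 5′ ends of RNA, and in contrast to IFIT1, whose binding to capped RNA depends on how the cap-proximal nucleotides are methylated, it takes 5′ monophosphate and triphosphate ends. IFIT5 (ENSG00000152778.8; chromosome 10, 89414586 to 89421001, plus strand) was at 0.72 (SE 0.18 and adjusted p = 0.000755, by DESeq2) per the authors' deposited table with a mean of 212.5. Its siPCIF1 level was 164.3% of the siScramble level (95% interval 127.9 to 211.0%). IFIT5 has the lowest GC content of the 8 main transcripts, at 37.4%, and after removal of the trend with GC content, length and mean count it was at 0.41 and no longer passed (adjusted p = 0.0835 from the DESeq2 values). Its window holds 3 ISRE cores, at -45 to -36, -19 to -10 and -4 to 6, each read on the minus strand. IFIT1, IFIT2 and IFIT3 were at 0.19, 0.25 and 0.12 with SEs of 0.28 to 0.29 per the authors' deposited table; their means were 8.72, 16.0 and 15.7, and none passed. The intervals of IFIT5 minus each of them held 0, the narrowest running from -0.07 to 1.25, so a difference within the family was not shown.

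ADAR edits adenosine to inosine in double-stranded RNA, which keeps the sensor MDA5 from reading the cell's own RNA as foreign. ADAR (ENSG00000160710.15; chromosome 1, 154582057 to 154628013, minus strand) was at 0.06 (SE 0.14 and adjusted p = 0.768, by DESeq2) per the authors' deposited table with a mean of 2931. Its 95% interval, from -0.21 to 0.33, was the narrowest of the 8. The gene makes an interferon-induced long form and a constitutive short form from different starts, and a value per gene does not separate them. ADARB1, the related editor of neurons, was at 0.60 (SE 0.18 and adjusted p = 0.00486, by DESeq2) per the authors' deposited table, and ADAR lay below it by -0.53 (95% interval -0.98 to -0.09).

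Ordered by fold change, the genes ran ISG20, IRF1, STAT2, IRF3, MAVS, IRF2, ADAR and IFIT5. Among neighbours, ISG20 lay below IRF1 by -0.63 (95% interval -1.20 to -0.07), IRF1 below STAT2 by -0.76 (-1.23 to -0.28) and ADAR below IFIT5 by -0.65 (-1.11 to -0.20), while the intervals of the 4 steps from STAT2 to ADAR held 0. By level the order was another. Per kilobase of the main transcript, the mean normalised count over all samples was 443 for ADAR, 106.5 for IRF3, 77.4 for MAVS, 64.9 for STAT2, 64.4 for IRF1, 52.9 for IFIT5, 51.4 for ISG20 and 37.0 for IRF2; this scale rests on which annotated transcript is taken as the main one. The 4 genes that changed lay next to each other in this order, between MAVS and IRF2, and the most abundant transcript, that of ADAR, did not pass. By the mean count itself, not divided by length, IRF3 at 180.1 lay between STAT2 at 211.6 and ISG20 at 95.4. The 4 genes were then not all next to each other.

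**Figure D2:**
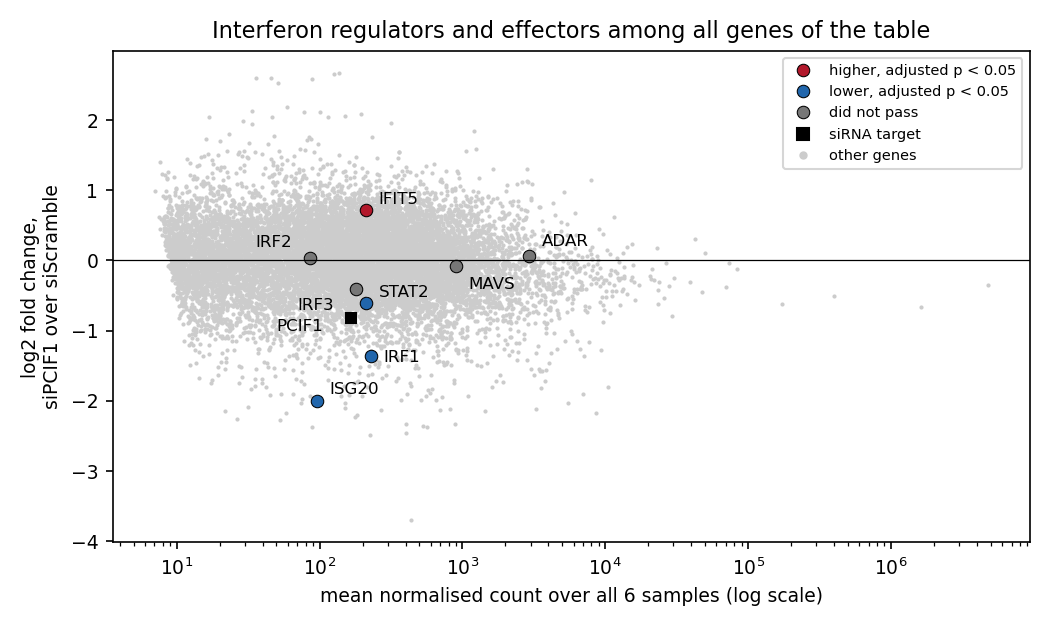
Log2 fold change (siPCIF1 over siScramble) against the mean normalised count over all 6 samples on a log scale, for all 13885 genes of the authors' deposited table (grey), the 8 interferon regulators and effectors (circles) and PCIF1 (square). ISG20 and IRF1 lie low in the cloud, with 0.180% and 1.16% of all genes below them, and MAVS and ADAR sit near 0.

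Around these genes the interferon pathway was mixed. Of 168 listed genes of the pathway, 97 were analysed, and of these 13 rose and 17 fell by the DESeq2 values of the authors' deposited table, which is 13.4% and 17.5% beside 16.3% and 17.7% of all genes. Without the 8 genes described above, 12 of 89 rose and 14 fell, with a median log2 fold change of -0.05. The interferon genes themselves were not analysed here (0 of 9 listed). The counts per list below are to be read beside the same shares of all genes. Against an absolute log2 change of 0.3 in place of 0, 0 genes were called among the IRF2-binding corepressors, the STAT genes, the receptors and Janus kinases, and the adaptors and kinases upstream of IRF3.

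Among the IRF family, 2 of 6 analysed members fell and 0 rose by the DESeq2 values of the authors' deposited table. Of all genes, 17.7% fell and 16.3% rose, so a count this small says little of the family. The second that fell was IRF7, the interferon-induced factor that amplifies the response, at -1.24 (SE 0.25 and adjusted p = 1.24e-05, by DESeq2) per the authors' deposited table with a mean of 45.1. IRF1 minus IRF7 was -0.12, with a 95% interval of -0.73 to 0.48. Of the 3 corepressors that bind IRF2, IRF2BP1 and IRF2BPL fell, at -0.70 (SE 0.19) and -0.61 (SE 0.16) per the authors' deposited table, and IRF2BP2 was at -0.25 (SE 0.13 and adjusted p = 0.134, by DESeq2). With the trend removed IRF2BP1 and IRF2BPL were at -0.37 and -0.33 and neither was called (adjusted p = 0.139 and 0.133 from the DESeq2 values).

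Of 6 STAT genes, STAT2 fell and STAT3 and STAT5B rose by the DESeq2 values of the authors' deposited table, the last pair at 0.37 (SE 0.13) and 0.40 (SE 0.16). Among 7 interferon receptors and Janus kinases 1 rose and 1 fell, where 16.3% of all genes rose and 17.7% fell. IFNAR1, a chain of the type I interferon receptor, was at 0.80 (SE 0.18) and the kinase JAK1 at -0.45 (SE 0.14) per the authors' deposited table, while TYK2 and IFNAR2 were at -0.31 and 0.51 and did not pass.

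Of 12 adaptors and kinases upstream of IRF3, TBK1 rose and AZI2, an adaptor of TBK1, fell, at -0.50 (SE 0.18 and adjusted p = 0.0199, by DESeq2) per the authors' deposited table. With the trend removed AZI2 was at -0.81, and 2 genes of this list were called higher in place of 1. TANK and TBKBP1, other adaptors of the kinase, were at 0.38 and -0.28 per the authors' deposited table and missed the threshold. Of 10 listed RNA sensors 2 were analysed, NLRP1 and ZNFX1, at -0.11 and -0.04 per the authors' deposited table, and neither passed. SAMHD1 was the gene analysed of 5 in DNA sensing, at 0.20 (SE 0.16 and adjusted p = 0.354, by DESeq2) per the authors' deposited table.

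Of 7 analysed effectors that act on double-stranded RNA, 3 rose and 0 fell by the DESeq2 values of the authors' deposited table, with a median of 0.46. Since 16.3% of all genes rose and 17.7% fell, a count this small says little of the list. EIF2AK2, which encodes the kinase PKR, was at 0.84 (SE 0.17 and adjusted p = 9.34e-06, by DESeq2) per the authors' deposited table, and ADARB1, described above, rose too. OAS1, which makes oligoadenylates, was at 0.46 (SE 0.28 and adjusted p = 0.196, by DESeq2) per the authors' deposited table. With the trend removed the median of this list was 0.48, 3 genes were still called higher, and EIF2AK2 was at 0.48. Against an absolute log2 change of 0.3, 1 gene of the list was called. Of 6 analysed genes that act at the cap and the 5′ end, IFIT5 was the gene that rose; the cap ribose methyltransferases CMTR1 and CMTR2 were at 0.02 (SE 0.14) and 0.41 (SE 0.18) per the authors' deposited table and missed the threshold.

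Other interferon-stimulated genes went both ways, with 3 of 24 higher and 4 lower by the DESeq2 values of the authors' deposited table and a median of 0.03. Shares over all genes were 16.3% higher and 17.7% lower. SAMD9L, an antiviral inhibitor of translation, was at 2.60 (SE 0.27 and adjusted p = 3.71e-14, by DESeq2), and its neighbour and relative SAMD9 at 0.75 (SE 0.29 and adjusted p = 0.0371, by DESeq2) per the authors' deposited table. ZC3HAV1, an antiviral protein that binds CpG-rich RNA, was at 0.45 (SE 0.14) per the authors' deposited table. LAMP3, a lysosomal membrane protein, was at -2.28 (SE 0.25 and adjusted p = 8.19e-17, by DESeq2) and TRIM5, a restriction factor of retroviruses, at -0.98 (SE 0.23) per the authors' deposited table, and HELZ2 and IFI27L1 at -0.55 and -0.48. With the trend removed SAMD9L, LAMP3 and TRIM5 were still called, while SAMD9 at 0.22, ZC3HAV1 at 0.31, HELZ2 at -0.38 and IFI27L1 at -0.23 were not. Their adjusted p-values from the DESeq2 values were then 0.651, 0.0824, 0.105 and 0.379. The list then had 2 genes higher and 3 lower, and against an absolute log2 change of 0.3 it had 1 higher and 2 lower. The mean normalised counts of SAMD9L, SAMD9, LAMP3 and TRIM5 were 46.1, 13.7, 53.0 and 49.4. Where a mean of at least 100 was asked for, which leaves these genes out, the list had 1 higher and 2 lower. ISG15, IFI6 and RSAD2, usual markers of an interferon response, had values of -0.49 (SE 0.29), -0.36 (SE 0.19) and 0.12 (SE 0.30), per the authors' deposited table and missed the threshold. They were chosen for naming after their values were seen. Their mean normalised counts were 15.6, 121.2 and 9.17, and the lowest mean of all genes was 7.01. The values of ISG15 and RSAD2 therefore say little of whether they changed.

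**Figure D3:**
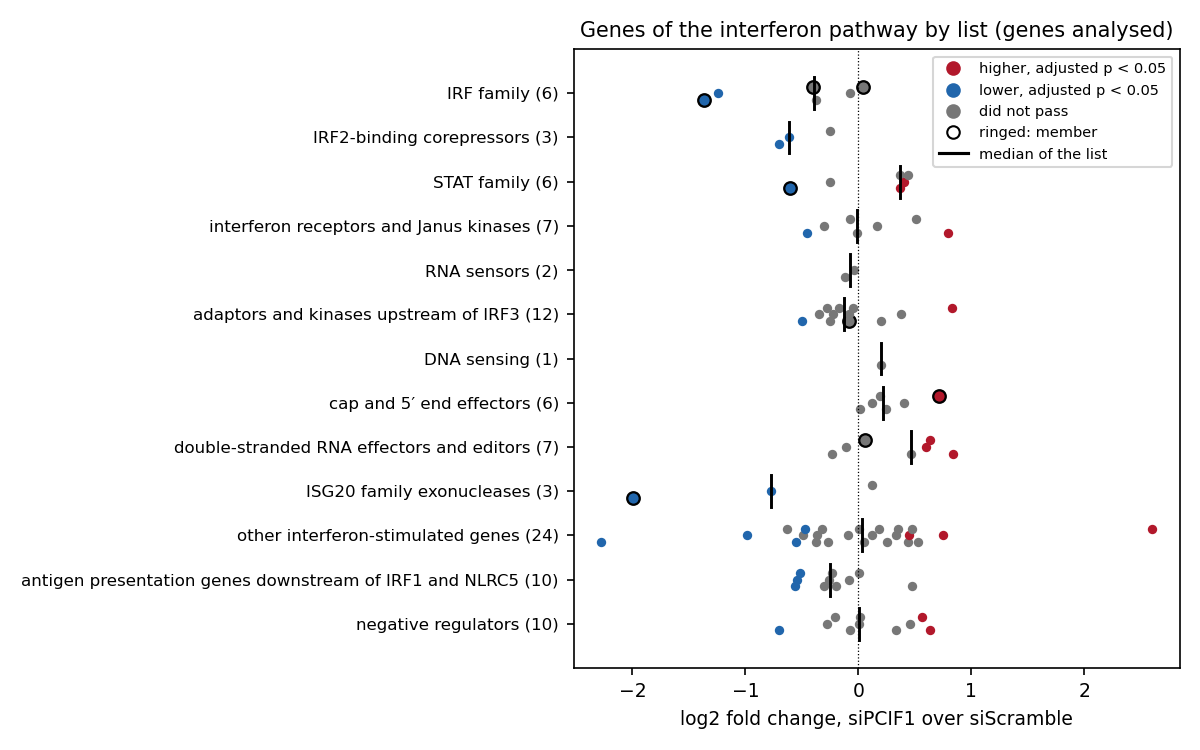
Log2 fold change (siPCIF1 over siScramble) per the authors' deposited table of each analysed gene of the interferon pathway lists, 1 row per list with the number of genes in brackets. Red and blue points passed a DESeq2 adjusted p of 0.05, ringed points are the genes described singly, and bars are list medians, from -0.77 for the ISG20 family to 0.46 for the double-stranded RNA effectors.

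Among these genes, promoter motifs were found both where expression fell and where it rose. Windows from 250 bases before to 50 after the start were given by RefSeq for 6 of the 8 genes, IRF1, STAT2, MAVS, ISG20, IFIT5 and ADAR. With both strands searched, the ISRE core was found in the window of ISG20, which fell, and in that of IFIT5, which rose; the GAS was found in IRF1. The windows of STAT2, MAVS and ADAR held neither. Over all 35116 windows, 3.57% held an ISRE core and 7.66% a GAS. Of 9836 genes of the authors' deposited table with a window, 355 held an ISRE core, and 21.1% of these rose and 13.8% fell by DESeq2, beside 16.8% and 18.5% of the genes without. A GAS was held by 843 genes, of which 21.4% rose and 15.8% fell by DESeq2, beside 16.5% and 18.6% of the genes without; IRF1, which holds one, fell. The median log2 fold change per the authors' deposited table was 0.05 with the ISRE core and -0.0040 without, and 0.07 with the GAS and -0.0069 without. After removal of the trend with GC content, length and mean count together, it was 0.04 with the ISRE core and 0.02 without, and 0.04 with the GAS and 0.02 without. The median GC content of the main transcripts was 46.7% with the ISRE core and 48.7% without, and 47.0% with the GAS and 48.8% without; its part in these differences was not tested. A match is a description of the letters and no evidence of binding.

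**Figure D4:**
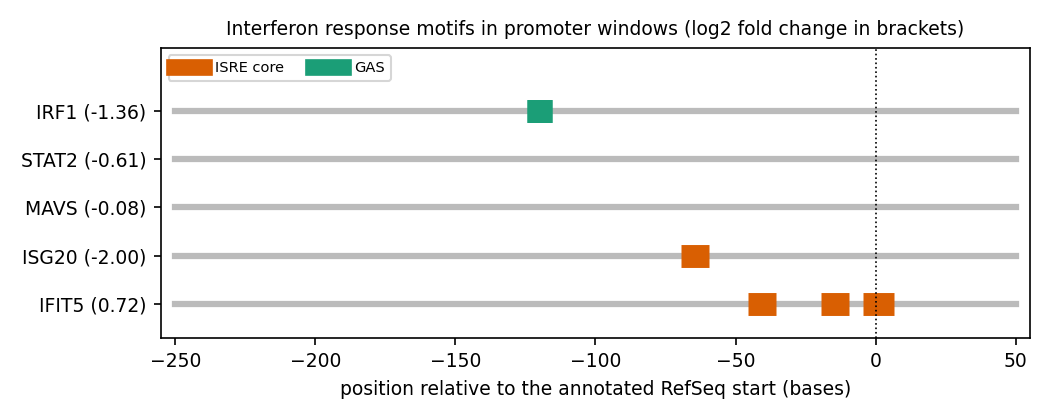
Positions of the ISRE core (orange) and the GAS (green) in the RefSeq promoter windows of 5 genes with a single window, in bases relative to the annotated start, with each gene's log2 fold change per the authors' deposited table in brackets. IFIT5 at 0.72 holds 3 ISRE cores, ISG20 at -2.00 holds 1, IRF1 at -1.36 holds the GAS, and STAT2 and MAVS hold neither.

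The first transcribed base matters to PCIF1, which needs an adenosine there. In GENCODE 29 the main transcripts of STAT2, IFIT5 and ISG20 start with A, those of IRF2, IRF3, MAVS and ADAR with G, and that of IRF1 with T. The RefSeq start gives A for STAT2 and IFIT5 as well, but G for ISG20 and A for IRF1. It gives C for MAVS, and the RefSeq starts of ADAR give T, A and G. Over all 35116 RefSeq windows, 44.4% had A at the start. The pair with A in both annotations, STAT2 and IFIT5, moved in opposite directions per the authors' deposited table. Over all 13877 genes with a transcript, 29.9% start with A by GENCODE, and their median log2 fold change per the authors' deposited table was 0.02, beside 0.0062 for G, -0.02 for C and 0.03 for T. Annotated starts are no measurement of the starts used in these cells, and m6Am was not measured in these files.

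The calls rest on the threshold and on the assumed spread to different degrees. Of the 4 calls, that of ISG20 held under each alternative that included the gene; with a mean of 95.4 it was left out where a mean of at least 100 was asked for. IRF1 was not called when the Wald statistics were divided by their robust SD over all genes (adjusted p = 0.110 from the rescaled DESeq2 statistics), and STAT2 and IFIT5 were called neither then nor in a test against an absolute log2 change of 0.3. As said above, that SD takes in any true changes and may overstate the error.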

How the data were processed

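RNA from 6 BE(2)-C samples was read from poly(A)-selected, strand-specific libraries, per the labels' protocols. Per the submitters' processing notes, the authors used the hg38 build, STAR 2.7.10a, HTSeq, DESeq2, bcl2fastq 2.20, cutadapt 3.7 and deepTools, whose roles and settings are not stated there, nor is the annotation. The authors' deposited table has 6 columns for 13885 genes: the mean normalised count over all samples (a signal of at least 0), the log2 fold change and its SE on the log2 scale, the Wald statistic (a score), and the p-value and adjusted p-value, each as deposited by the authors. The adjusted values could be recomputed from the p-values by Benjamini and Hochberg's method over the 13885 genes. SEs ran from 0.12 to 0.30 with a median of 0.18 and are the only measure of precision; depth per library is unknown. The SEs deposited by the authors have a ceiling, as those of fold changes shrunken under a DESeq2 normal prior have, so large changes may be understated; under that reading IRF1 was estimated at -1.52, ISG20 at -2.40 and PCIF1 at -0.93.

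Identifiers were matched without version to GENCODE 29 (13877 of 13885). The main transcript was ranked by APPRIS, basic tag, support level and length. The trend was a linear and quadratic fit of the log2 fold change on transcript GC content, log length and log mean count. Intervals are 95% normal intervals from the deposited fold change and SE. The fold change divided by its SE departed from the deposited Wald statistic by up to 2.16, so intervals and p-values rest on different estimates. SEs near the ceiling, such as those of IFIT1, IFIT2, IFIT3 and IRF9, may be understated, and so may the width of intervals that use them. If these are shrunken, the intervals of single genes may lie too near 0. Differences between genes may then lie too near 0 or too far from it, or have the other sign. By the unshrunken estimate IRF1 was at -1.52 and IRF7 at -1.63, the reverse of their order by the deposited values. The test against 0.3 used the same values. Genes named from the pathway lists were up to 4 per list with the smallest adjusted p, plus genes needed for small counts. The genes, lists and tests were chosen with earlier results of these data known, and the differences between related genes, the comparison of motif carriers and the comparison of first bases were added after values were seen. Calculations were tested on simulated data. The planned comparison of IRF protein sequences was not made. Some genes that the lists count are not reported here by name. Alternatives were other thresholds, a mean of at least 100, centring, a rescaled null, a test against an absolute change of 0.3, the trend and the unshrunken estimate. Calculations used Python 3.11.15 with pandas 2.3.3, scipy 1.17.1 and numpy 2.4.6, and plots matplotlib 3.10.9.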

Additional observations from a re-analysis of the deposited data

How the results depend on the processing

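No paired analysis was possible because values per library were not analysed here, and for the same reason no sample could be left out in turn. Of 62 fold changes of the 8 genes under the alternatives, 55 kept their direction and their side of the threshold. Part of this was fixed in advance. Direction could change only with centring or with the trend removed, since the other alternatives keep the deposited sign. The unshrunken estimate also keeps the deposited adjusted p-value, so its calls could not change. PCIF1 at -0.82 was not called with the rescaled statistics or against a change of 0.3. IRF2 turned to -0.031 with the trend removed. With the Wald statistics divided by their robust SD of 2.44, IRF1 at -1.36, STAT2 at -0.61 and IFIT5 at 0.72 were no longer called, leaving 0 of the 8 genes higher and 1 lower, 0 pathway genes higher and 2 lower, and 21 of all genes higher and 114 lower. Tested against an absolute log2 change of 0.3, STAT2 at -0.61 and IFIT5 at 0.72 were not called, leaving 0 of the 8 genes higher, 2 pathway genes higher and 6 lower, and 537 of all genes higher and 723 lower. IFIT5 was at 0.41 and not called with the trend removed, leaving 0 of the 8 genes higher. With a minimum mean of 100, which leaves out ISG20 and IRF2, 11 pathway genes were lower, since fewer genes were tested. At an adjusted p under 0.01, 1489 of all genes were higher. Otherwise the causes were not tested. Centring moved values by 0.0059.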

Other observations

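Antigen presentation genes, many of which IRF1 and NLRC5 are known to drive, had 3 of 10 analysed members lower and 0 higher by the DESeq2 values of the authors' deposited table, and their median, -0.25, was -0.08 after removal of the trend described above. Over all genes 17.7% were lower and 16.3% higher, so a count this small says little of the list. ERAP1, which trims peptides, was at -0.54 (SE 0.16) and HLA-C at -0.51 (SE 0.20) per the authors' deposited table; HLA-C shares near-identical stretches with related genes, so its value is uncertain. With the trend removed HLA-C was at -0.27 and not called (adjusted p = 0.339 from the DESeq2 values), ERAP1 was at -0.82, and 1 gene of the list was called lower; against an absolute log2 change of 0.3 the list had 0 calls. PSME2, a proteasome activator subunit, was at -0.26 (SE 0.15 and adjusted p = 0.152, by DESeq2) per the authors' deposited table.

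Negative regulators of interferon signalling had 2 of 10 members higher and 1 lower by the DESeq2 values of the authors' deposited table. Shares over all genes were 16.3% higher and 17.7% lower. PIAS1, an inhibitor of STAT signalling, was at 0.63 (SE 0.16), the phosphatase PTPN11 at 0.57 (SE 0.15) and the feedback inhibitor SOCS2 at -0.71 (SE 0.21) per the authors' deposited table. With the trend removed PIAS1 was at 0.36 and not called (adjusted p = 0.0895 from the DESeq2 values), which left 1 gene higher and 1 lower, and against an absolute log2 change of 0.3 the list had 0 calls. PTPN2, a phosphatase of Janus kinases, was at 0.46 (SE 0.22 and adjusted p = 0.0929, by DESeq2) per the authors' deposited table. Among the neuroblastoma markers ISL1 was at -0.77 (SE 0.14), MYCN at 1.09 (SE 0.16) and HAND2 at 0.74 (SE 0.15) per the authors' deposited table, with 4 of 11 higher and 2 lower; with the trend removed 7 were higher and 2 lower. CD14 was at 0.90 (SE 0.19 and adjusted p = 3.17e-05, by DESeq2) and NCAM1 at 0.02 (SE 0.15 and adjusted p = 0.921, by DESeq2) per the authors' deposited table; the part of either in the results above was not tested.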
